A study of Homo sapiens with 6 samples.

Results

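The genes of cholesterol synthesis and intracellular sterol transport were examined together with GRAMD1B, which encodes a sterol carrier, in NB4 cells with and without disruption of ARID1A. The set held 35 genes of the 52992 to which transcripts were summed. They were 18 synthesis enzymes, 5 sensing and control genes, 8 genes of lysosomal egress, transport and storage, and 4 genes of efflux and the liver X receptors. All 35 passed the filter on low counts and belonged to the 18514 genes tested. GRAMD1B was chosen by its measured level, which was lower in the ARID1A-deficient samples, so its comparison with LacZ is described here without a test. The other 34 members were listed by function, with earlier results of these data known, and were tested. The question was whether the low GRAMD1B level came with a change in genes of synthesis, of the handling of sterol taken up, or of efflux.

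NB4 is an established line of acute promyelocytic leukemia. Its cells expressed Cas9 and carried an inducible small guide RNA (sgRNA) that targeted either lacZ, a bacterial gene used as control, or ARID1A, the gene of a DNA-binding subunit of SWI/SNF chromatin remodelers. The 6 RNA-sequencing samples were LacZ (genotype WT), ARID1A sg1 and ARID1A sg5 (both ARID1A-deficient), with 2 replicates each. Every sample received 1 µg/ml doxycycline for 7 days, and per the study's methods the drug was then withdrawn for some days before RNA was taken. Transduced cells were sorted on the fluorescent markers of their vectors, with no mention of single clones, and nothing states that replicates were separate cultures, so that p-values may measure only technical spread.

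Cells make cholesterol from acetyl-CoA. The mevalonate enzymes build isoprenoid units, squalene is formed from them, and the sterol enzymes close and trim the ring. When sterol in the endoplasmic reticulum is low, SCAP carries the SREBP transcription factors to the Golgi, where their active part is released to switch on the synthesis genes, whereas INSIG proteins hold SCAP back when sterol is plentiful. Sterol that arrives with lipoproteins leaves the lysosome through NPC2 and NPC1, the GRAMD1 proteins move accessible cholesterol from the plasma membrane to the endoplasmic reticulum, and ABC transporters under the control of liver X receptors export the excess.

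The samples held 46131178 to 54843745 estimated counts each. On the first principal component, which held 34.4% of the variance, sg1 replicate 1 and sg5 replicate 2 stood apart from the other 4 samples, at 34.3 and 46.8 against -30.3 to -11.3. ARID1A itself did not separate the genotypes at the RNA level. Its normalised level (CPM, counts scaled to library size) was 155 and 191 for LacZ, 211 and 191 for sg1 and 124 and 145 for sg5. Cas9 cuts need not lower the level of a transcript, so this is no check of the knockout. Of 6 promyelocyte markers, 5 exceeded 1 TPM (transcript abundance scaled for length and depth) in all 6 samples. The list summed to 8140 to 9020 TPM in LacZ, 7530 to 8060 in sg1 and 6820 to 7390 in sg5. Its highest gene value was 7770 TPM, so 1 gene could make up most of the sum.

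GRAMD1B lay on chr11:123358428-123627774, plus strand, in GENCODE release 29 on GRCh38. Its level was 39.8 and 37.9 CPM in the LacZ replicates, 20.9 and 21.3 with sg1, and 20.4 and 21.5 with sg5. The 4 ARID1A-deficient samples lay close together and well below both controls. Their mean was 21.0 ± 0.479 CPM (SD, n = 4), against 38.8 ± 1.28 CPM (SD, n = 2) in LacZ. The fitted log2 fold change was -0.88 in sg1 and -0.89 in sg5, and the mean of both against LacZ was -0.89, or 0.541 of the control level. Between the sgRNAs it differed by 0.01 on the log2 scale, sg1 minus sg5. This is given without a test too, since a gene chosen as low under both sgRNAs is likely to differ little between them.

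**Figure D1:**
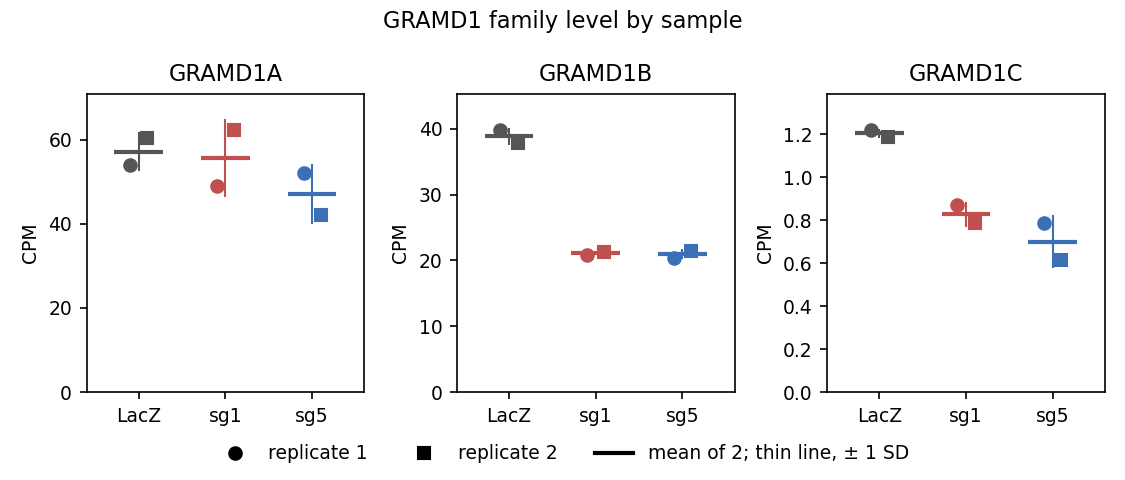
Level in CPM (y axis, starting at 0 and on its own scale in each panel) of GRAMD1A, GRAMD1B and GRAMD1C in LacZ, sg1 and sg5 (x axis). Points are samples, thick lines are means of 2 and thin lines span ± 1 SD. GRAMD1B was 37.9 or more in LacZ and 21.5 or less in the ARID1A-deficient samples.

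At the transcript level, 10 GRAMD1B transcripts were in the deposited tables. Most counts were assigned to GRAMD1B-207, a protein-coding transcript of 7723 bases, which took 66.7% to 79.7% of the gene's counts. It had 1669.9 and 1335.8 estimated counts in the LacZ replicates, 770.6 and 729.6 with sg1, and 638.3 and 834.6 with sg5. The retained-intron transcript GRAMD1B-208 had 291.9 and 303.4 counts in LacZ and between 94.3 and 161.4 in the ARID1A-deficient samples. Both therefore had their lowest control value above their highest ARID1A-deficient value. GRAMD1B-206 followed no group, with 6.7 and 120.1 counts in the LacZ replicates, 44.6 and 0.0 with sg1, and 101.0 and 15.7 with sg5. The tool divides reads shared by transcripts with a model, so small transcript values are less certain than the gene's sum.

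**Figure D2:**
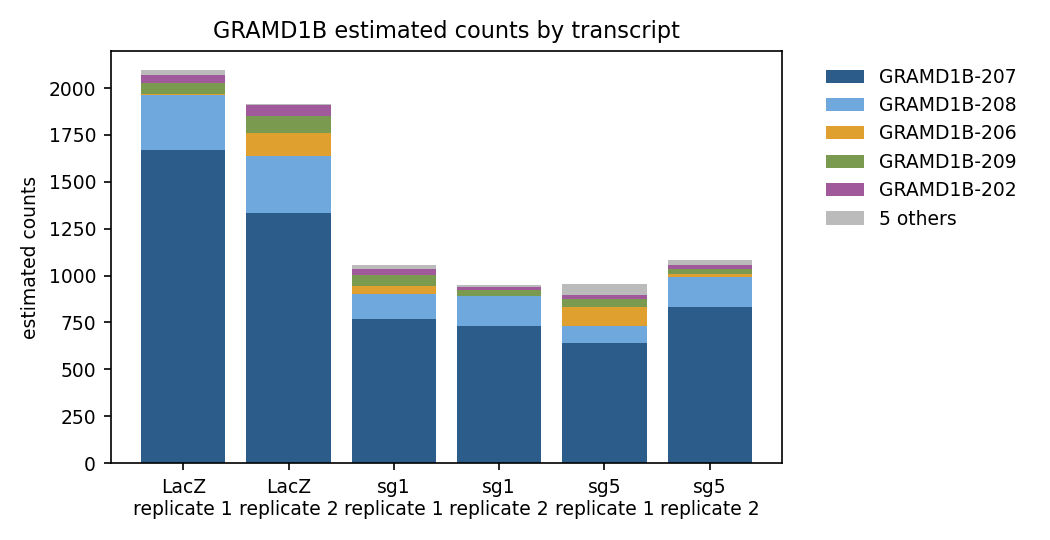
Estimated counts of GRAMD1B (y axis) in each sample (x axis), stacked by transcript. GRAMD1B-207 formed the largest part of every bar, and the bars reached 2094 and 1913 in LacZ and 1085 or less in sg1 and sg5.

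Markers of other blood cell types also differed between the genotypes. The megakaryocyte list summed to 8.65 to 9.63 TPM in LacZ and 1.96 to 2.36 in ARID1A-deficient samples, with GP9 and PF4 at 0 in all samples and 4 of 5 genes under 1 TPM. Its highest gene value was 9.26 TPM, so the LacZ sum was mostly that of 1 gene. The eosinophil, basophil and mast cell list summed to 88.2 to 96.0 TPM in LacZ and 30.6 to 35.3 in ARID1A-deficient samples, with 2 of 6 genes over 1 TPM in all samples and 2 under it. Its highest gene value was 73.5 TPM, so 1 gene could make up most of the LacZ sum. B cell markers went the other way, at 34.4 to 39.9 TPM in LacZ and 44.4 to 52.9 in ARID1A-deficient samples, with 2 of 5 genes over 1 TPM in all samples. The highest value of a B cell gene was 36.2 TPM, so here too 1 gene could make up most of a sum. The T cell list summed to 12.4 to 13.8 TPM in LacZ and 15.0 to 19.5 in ARID1A-deficient samples, but 4 of its 5 genes were under 1 TPM in all samples, so that the sum was nearly that of 1 gene. Erythroid and stromal markers were under 1 TPM in all samples. In these bulk samples fewer cells of a type and less RNA per cell cannot be told apart, and the part of these markers in the GRAMD1B level was not tested.

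GRAMD1A and GRAMD1C encode the other members of the same carrier family. GRAMD1C was barely expressed, at 1.22 and 1.19 CPM in the LacZ replicates, 0.87 and 0.788 with sg1, and 0.789 and 0.613 with sg5. All 4 ARID1A-deficient samples were below both controls, on 31 to 44 counts against 60 and 64, and in TPM they had 0.796 to 1.17 against 1.76 and 2.28. The log2 fold change of the ARID1A-deficient samples was -0.66 with a standard error (SE) of 0.26, and it did not pass the test (unadjusted p = 0.0345, FDR = 0.652 by edgeR). GRAMD1A, the most abundant of the family, overlapped between groups, with 53.9 and 60.5 CPM in the LacZ replicates, 49.1 and 62.3 with sg1, and 52.2 and 42.1 with sg5. Its log2 fold change was -0.16 (95% interval -0.47 to 0.15), and the sign in sg1 alone turned from -0.04 to 0.08 with an offset for transcript length. In TPM, which corrects for length, GRAMD1B made up 20.7% and 19.6% of the family's sum in LacZ and 11.3% to 14.4% in the ARID1A-deficient samples. The sum itself was 52.1 and 56.0 TPM in the LacZ replicates, 46.2 and 52.6 with sg1, and 44.3 and 40.6 with sg5, so that the groups overlapped.

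Among the other 34 members, 0 passed an FDR of 0.1 by the edgeR quasi-likelihood test in sg1, sg5 or both joined, where 0.0378%, 0.0972% and 0.167% of all genes tested passed. At an unadjusted p under 0.05 there were 0 of 34 in sg1, 2 in sg5 (SREBF1 and GRAMD1C) and 1 in the joined comparison (GRAMD1C). The shares of all genes at that level were 4.15%, 7.47% and 7.21%. By DESeq2, 0 of the 34 passed in each, beside 0.627%, 1.09% and 1.43% of all genes, and 0, 1 and 0 had an unadjusted p under 0.05, beside 3.64%, 6.95% and 6.57%. The median log2 fold change of the 34 members was 0.06 in sg1, 0.01 in sg5 and 0.01 joined, beside 0.00, -0.01 and -0.01 for all genes. All 4 ARID1A-deficient samples lay above both LacZ samples for 1 of the 34 (SOAT1) and below them for 4 (SREBF1, SREBF2, NR1H3 and GRAMD1C). The shares of all genes were 9.72% above and 10.4% below.

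**Figure D3:**
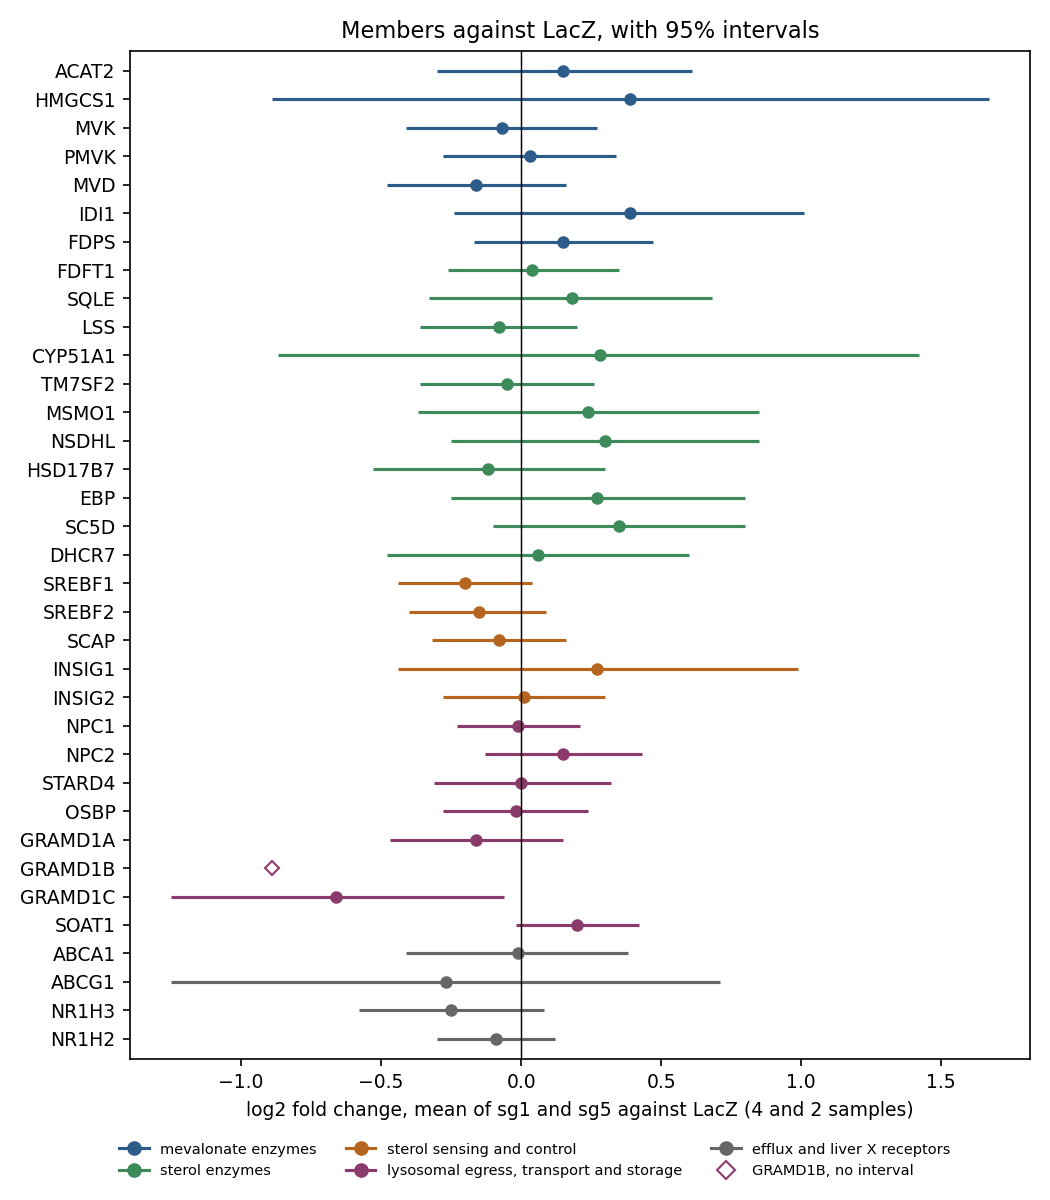
Log2 fold change of the mean of sg1 and sg5 against LacZ (x axis) for each member (y axis), coloured by role. Points are edgeR estimates and lines their 95% intervals, and GRAMD1B (open diamond, -0.89) has none because it was chosen for this difference. Intervals of the synthesis enzymes crossed 0, and the widest among them was that of HMGCS1, from -0.89 to 1.67.

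The mevalonate enzymes comprised ACAT2, which joins acetyl-CoA units, HMGCS1, which forms HMG-CoA, the kinases MVK and PMVK, the decarboxylase MVD, the isomerase IDI1 and FDPS, which makes farnesyl diphosphate. Their log2 fold changes in the joined comparison ran from -0.16 for MVD to 0.39 for HMGCS1 and IDI1, with a median of 0.15. HMGCS1 had 229 and 154 CPM in the LacZ replicates, 312 and 176 with sg1, and 146 and 371 with sg5. Its highest and its lowest sample were both from sg5. IDI1 had 52.3 and 38.5 CPM in the LacZ replicates, 67.9 and 44.1 with sg1, and 47.4 and 78.1 with sg5, again with overlap. The 95% intervals, -0.89 to 1.67 for HMGCS1 and -0.24 to 1.01 for IDI1, were wide enough to reach the size of the GRAMD1B difference. The other mevalonate enzymes were held more closely. FDPS had 178 and 159 CPM in the LacZ replicates, 205 and 171 with sg1, and 161 and 213 with sg5, with an interval of -0.17 to 0.47. For PMVK the interval was -0.28 to 0.34, for MVK -0.41 to 0.27, for MVD -0.48 to 0.16 and for ACAT2 -0.30 to 0.61.

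The sterol enzymes were FDFT1 (squalene synthase), SQLE (squalene epoxidase), LSS (lanosterol synthase), CYP51A1 (lanosterol demethylase) and 7 later enzymes, namely TM7SF2, DHCR7, MSMO1, NSDHL, HSD17B7, EBP and SC5D. TM7SF2 and DHCR7 are reductases, MSMO1, NSDHL and HSD17B7 take part in removing methyl groups, EBP is an isomerase and SC5D a desaturase. Their median log2 fold change was 0.18 in the joined comparison, from -0.12 for HSD17B7 to 0.35 for SC5D. EBP had 110 and 107 CPM in the LacZ replicates, 162 and 103 with sg1, and 102 and 160 with sg5. DHCR7 had 236 and 215 CPM in the LacZ replicates, 288 and 198 with sg1, and 166 and 288 with sg5. In both, 1 replicate of each sgRNA lay above the controls and the other below them. SQLE had 71.7 and 63.4 CPM in the LacZ replicates, 86.6 and 64.7 with sg1, and 56.8 and 97.6 with sg5, and its log2 fold change was 0.18 (SE 0.22). FDFT1, the most abundant, was between 317 and 412 CPM (95% interval of its log2 fold change -0.26 to 0.35), LSS between 143 and 188 CPM (-0.36 to 0.20), TM7SF2 between 11.4 and 14.1 CPM (-0.36 to 0.26) and HSD17B7 between 8.08 and 13.4 CPM (-0.53 to 0.30). SC5D had 29.5 and 23.7 CPM in the LacZ replicates, 36.5 and 27.0 with sg1, and 28.7 and 43.8 with sg5, without separating the groups. CYP51A1 was listed at 0.0572 to 0.208 TPM on 7 to 19 counts, from 4 matching transcripts. Transcripts without a match were not assigned to any gene, and whether they hold reads of CYP51A1 was not tested, so these values may not give its level.

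These results depended on the pair of samples at the far end of the first principal component. Without sg1 replicate 1 and sg5 replicate 2, 4 of the 34 members passed in sg5, where 4.09% of all genes passed. They were MVD (log2 fold change -0.50, FDR = 0.00111 by edgeR), DHCR7 (-0.44, FDR = 0.00545), MVK (-0.46, FDR = 0.0129) and LSS (-0.34, FDR = 0.0608). MVD and DHCR7 also passed in the joined comparison, at -0.34 and -0.31, where 4.2% of all genes passed. Conversely, without the filter on low counts 1 of 34 passed in sg5 (IDI1, log2 fold change 0.47, FDR = 0.0837 by edgeR), where 1.92% of 32983 genes passed, and 1 of 34 joined (HMGCS1, 0.39, FDR = 0.091), where 2.13% did. In the fit without the pair each sgRNA had a single sample, whose spread was assumed to equal that between the 2 LacZ replicates.

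Among the control genes, SREBF1 and SREBF2 encode the SREBP transcription factors. SREBF1 had 302 and 334 CPM in the LacZ replicates, 299 and 299 with sg1, and 272 and 240 with sg5. SREBF2 had 482 and 499 CPM in the LacZ replicates, 453 and 457 with sg1, and 460 and 393 with sg5. Both were lower in every ARID1A-deficient sample than in either control, by a small margin. The joined log2 fold changes were -0.20 (SE 0.10, FDR = 0.742) for SREBF1 and -0.15 (SE 0.11, FDR = 0.766) for SREBF2 by edgeR, and neither passed. In TPM, SREBF1 overlapped, with 212 in sg1 replicate 2 and 209 in LacZ replicate 1, whereas SREBF2 did not. SCAP, the escort of the SREBPs, had 141 and 167 CPM in LacZ and 134 to 155 in the ARID1A-deficient samples. INSIG2 stayed between 12.9 and 14.8 CPM throughout. INSIG1, itself an SREBP target, had 154 and 109 CPM in the LacZ replicates, 197 and 116 with sg1, and 123 and 200 with sg5, a range like that of the synthesis enzymes.

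Among the genes that handle sterol after uptake, SOAT1 separated the genotypes beside GRAMD1B and GRAMD1C, and the others overlapped. NPC1, the lysosomal membrane protein, was between 42.0 and 45.6 CPM in all 6 samples, and its log2 fold change was -0.01 (95% interval -0.23 to 0.21). NPC2, its soluble partner, was between 27.5 and 36.4 CPM. OSBP, which exchanges sterol for a phosphoinositide at the Golgi, had a log2 fold change of -0.02 (95% interval -0.28 to 0.24), and STARD4, a soluble carrier, one of 0.00 (95% interval -0.31 to 0.32). SOAT1, which esterifies cholesterol for storage, had 42.2 and 43.3 CPM in the LacZ replicates, 48.9 and 48.2 with sg1, and 47.9 and 51.7 with sg5. Every ARID1A-deficient sample was above both controls, in TPM as well, but the log2 fold change of 0.20 (SE 0.10) did not pass (unadjusted p = 0.067, FDR = 0.728 by edgeR).

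Of the efflux genes, ABCA1, the cholesterol exporter, had 61.3 and 70.8 CPM in the LacZ replicates, 66.8 and 72.8 with sg1, and 75.6 and 47.2 with sg5. Its highest and lowest samples were again both from sg5. ABCG1, another exporter, was nearly absent, with 10 to 22 counts per sample. The liver X receptors are NR1H3 and NR1H2. NR1H3 had 11.6 and 12.8 CPM in the LacZ replicates, 10.8 and 10.7 with sg1, and 8.80 and 10.7 with sg5. All 4 ARID1A-deficient samples were below both controls in CPM but not in TPM, where sg1 replicate 1 had 15.0 and LacZ replicate 1 had 14.7. The log2 fold change was -0.25 (SE 0.15, FDR = 0.744 by edgeR). NR1H2 was between 56.5 and 66.5 CPM, with a log2 fold change of -0.09 (95% interval -0.30 to 0.12).

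Across genes, levels are compared in TPM. Ranked by the LacZ mean, FDFT1 came first at 305 ± 20.5 TPM (SD, n = 2), followed by FDPS at 256 ± 29.7, SREBF1 at 213 ± 5.77, EBP at 202 ± 4.84 and DHCR7 at 135 ± 9.80. FDFT1 and FDPS differed by less than their summed SDs, as did DHCR7 and the next gene, SREBF2, at 130 ± 1.63. GRAMD1B was 31st of 35 at 10.9 ± 0.138 TPM in LacZ, between ABCA1 at 12.1 ± 0.0665 and INSIG2 at 9.84 ± 0.247. In the ARID1A-deficient samples it had 5.84 to 6.38 TPM. The 18 synthesis enzymes summed to 1480 and 1300 TPM in the LacZ replicates, 1660 and 1320 with sg1, and 1200 and 1720 with sg5, so the sum overlapped between groups and its extremes both came from sg5.

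**Figure D4:**
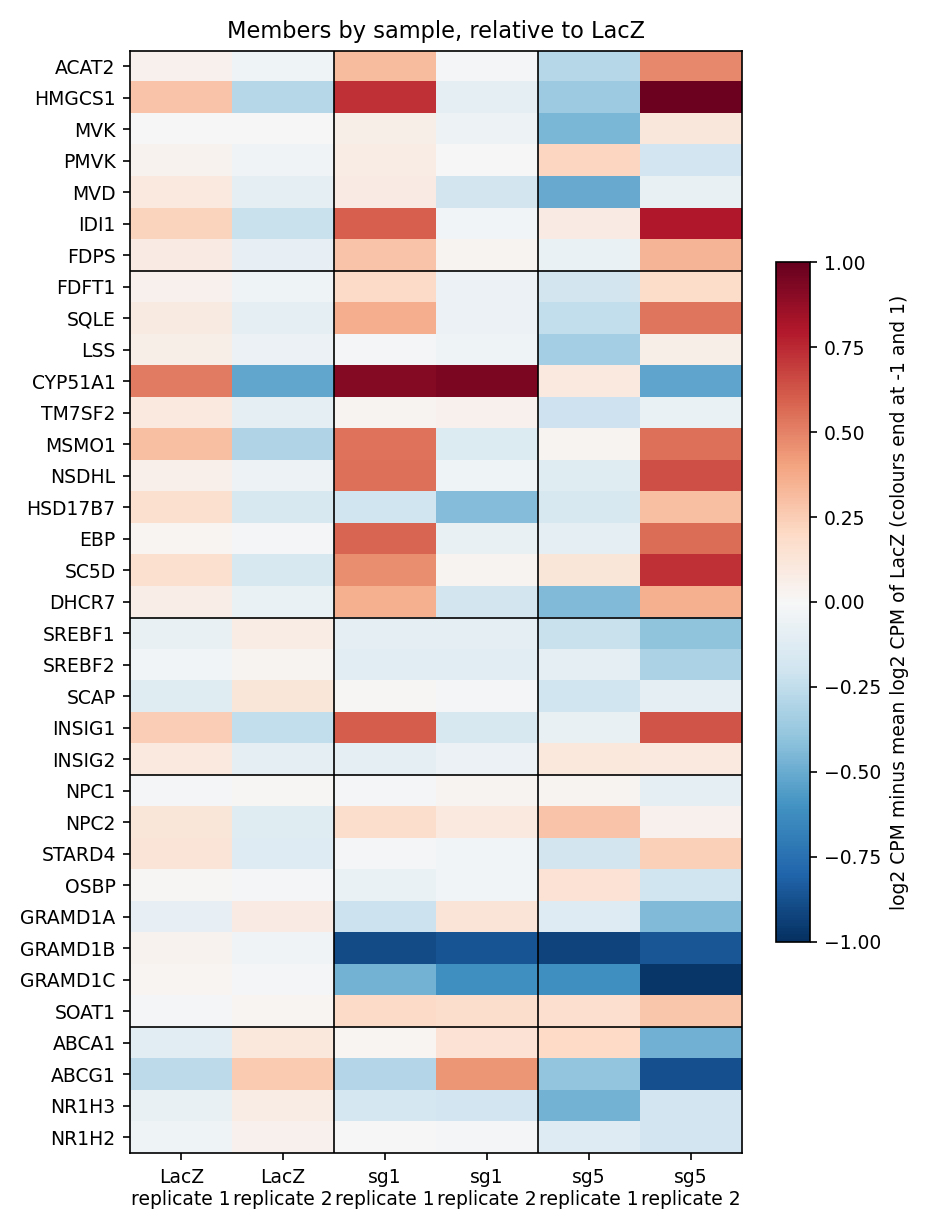
Log2 CPM of each member (rows, by role group) in each sample (columns) minus the mean log2 CPM of LacZ, with red above and blue below it. GRAMD1B is blue in all 4 ARID1A-deficient samples, whereas most synthesis enzymes and INSIG1 are red in sg1 replicate 1 and sg5 replicate 2 and pale or blue in the other replicate of each sgRNA.

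The synthesis enzymes varied together within groups, whatever the sgRNA. Of the 18 enzymes, 18 were higher in LacZ replicate 1 than in replicate 2, 16 were higher in sg1 replicate 1 than in replicate 2, and 16 were higher in sg5 replicate 2 than in replicate 1. The shares of all genes tested were 51.0%, 47.6% and 48.6%. All 3 directions held for 15 of 18 enzymes (83.3%), beside 15.0% of all genes, and the exceptions were PMVK, CYP51A1 and TM7SF2. The directions were chosen after the values had been seen, so this is a description without a test. Among the 17 other members it held for INSIG1 and STARD4. The median difference of the 18 enzymes in log2 CPM was 0.17 in LacZ, 0.30 in sg1 and 0.55 in sg5, beside 0.01, -0.02 and -0.01 for all genes. Folds of the 15 enzymes ran from 1.01 to 1.52 in LacZ, from 1.02 to 1.78 in sg1 and from 1.29 to 2.55 in sg5.

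HMGCS1 had the widest difference in sg5, at 2.55-fold, and 1.49-fold and 1.78-fold in LacZ and sg1. MSMO1 had 41.7 and 27.4 CPM in the LacZ replicates, 49.2 and 30.7 with sg1, and 34.4 and 49.6 with sg5, or folds of 1.52, 1.60 and 1.44. NSDHL was nearly equal between the controls, at 34.2 and 31.9 CPM, but had 48.5 and 32.0 in sg1 and 30.3 and 51.7 in sg5. INSIG1 followed with folds of 1.41, 1.70 and 1.63. SREBF1 and SREBF2 did not, since the same ratios were 0.902, 0.999 and 0.884 for SREBF1 and 0.964, 0.991 and 0.854 for SREBF2. GRAMD1B did not either, with 1.05, 0.982 and 1.05. The replicate with the higher enzyme levels was the more deeply sequenced one in each group, with total counts of 53712098 against 52202084 in LacZ, 54490092 against 46131178 in sg1 and 54843745 against 48541973 in sg5. In sg1 and sg5 it was also the replicate at the far end of the first principal component. The part of depth in the pattern was not tested. With TPM in place of CPM the 3 directions held for 13 of 18 enzymes (13.4% of all genes), and with total counts in place of normalization factors for 14 (13.1%).

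**Figure D5:**
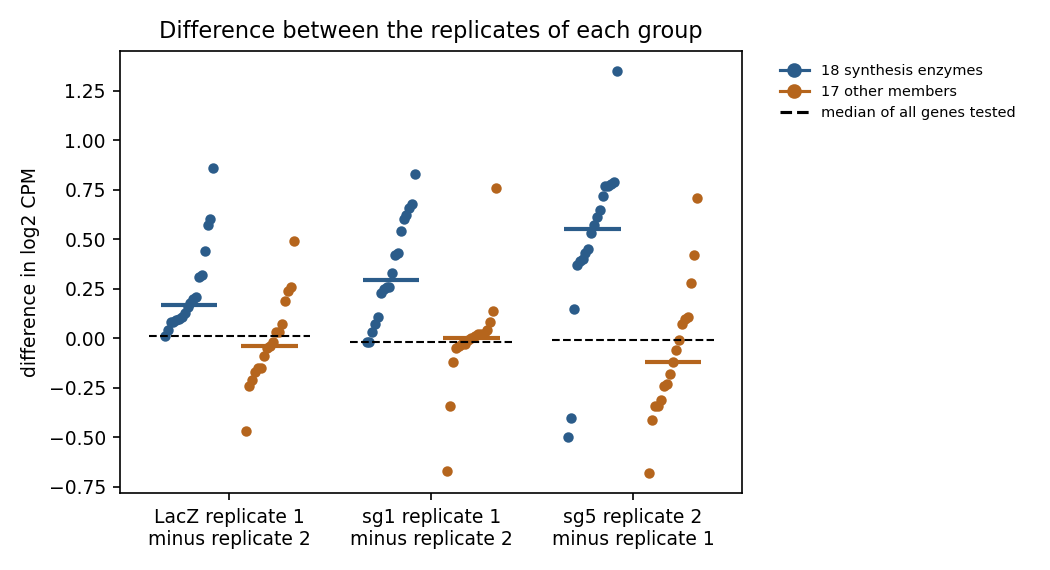
Difference in log2 CPM between the replicates of each group (y axis; x axis gives which was subtracted from which) for the 18 synthesis enzymes (blue) and the 17 other members (orange). Points are genes, solid lines their medians and dashed lines the median of all genes tested. The medians of the enzymes are 0.17, 0.30 and 0.55, above the dashed line in each group.

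Since most enzymes shared these directions, the promoters of the set were searched for known letters on both strands. RefSeq promoter windows of 300 bases on GRCh38.p14, 250 before and 50 after the gene start, were found for 30 of the 35 members. The windows not found were those of ACAT2, FDFT1, SQLE, GRAMD1B and ABCG1. The letters CCAAT, a box bound by NF-Y, which is known to work with SREBPs, occurred in 13 of 15 synthesis enzymes (86.7%), in 8 of 15 other members (53.3%) and in 39.7% of all genes. The core of a sterol regulatory element, CACNCCAC, occurred in 5 of 30 members (16.7%; ABCA1, IDI1, INSIG1, SC5D and SREBF2) and in 7.05% of all genes. This core was in 2 of 15 synthesis enzymes (13.3%) and 3 of 15 other members (20.0%), counts too small to compare the enzymes with the others. Its longer form TCACNCCAC, which contains the shorter one, was found in SREBF2 alone (1.39% of all genes). The E box CACGTG occurred in 2 of 15 synthesis enzymes (13.3%; LSS and SC5D) and 3 of 15 other members (20.0%; ABCA1, INSIG1 and SCAP), beside 8.77% of all genes. The liver X receptor repeat of AGGTCA with 4 bases between occurred in 0 of 30 (0.0256% of all genes). The 250 bases before the gene start are given 5′ to 3′ on the gene's strand for HMGCS1 (chr5:43313413-43313662, minus strand, the window with matches of 2 listed) and NSDHL (chrX:152830813-152831062, plus strand), as enzymes that differed by at least 1.52-fold between the replicates of both sgRNAs, for INSIG1 (chr7:155297628-155297877, plus strand), which followed them, and for SREBF2 (chr22:41832855-41833104, plus strand), which did not. IDI1 and EBP also differed by at least 1.52-fold between the replicates of both sgRNAs but are not printed. Both had a CCAAT match, and IDI1 had a CACNCCAC match as well. Capitals mark CCAAT and CACNCCAC on either strand, so that ATTGG and GTGGNGTG are their reverse forms.
HMGCS1: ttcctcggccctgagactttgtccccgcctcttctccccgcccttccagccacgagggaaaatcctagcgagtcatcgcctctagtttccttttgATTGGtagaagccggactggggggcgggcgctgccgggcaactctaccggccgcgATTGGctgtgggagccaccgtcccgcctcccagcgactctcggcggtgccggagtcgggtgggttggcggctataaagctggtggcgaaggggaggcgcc
NSDHL: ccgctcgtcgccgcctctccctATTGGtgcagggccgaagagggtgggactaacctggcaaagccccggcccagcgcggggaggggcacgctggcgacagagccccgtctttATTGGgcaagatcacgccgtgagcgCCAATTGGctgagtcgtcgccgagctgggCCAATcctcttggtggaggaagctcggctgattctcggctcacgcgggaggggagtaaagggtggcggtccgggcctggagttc
INSIG1: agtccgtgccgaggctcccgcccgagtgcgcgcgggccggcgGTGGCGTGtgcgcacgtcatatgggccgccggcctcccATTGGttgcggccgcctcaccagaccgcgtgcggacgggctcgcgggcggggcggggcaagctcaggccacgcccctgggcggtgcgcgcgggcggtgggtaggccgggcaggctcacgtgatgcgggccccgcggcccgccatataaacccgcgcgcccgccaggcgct
SREBF2: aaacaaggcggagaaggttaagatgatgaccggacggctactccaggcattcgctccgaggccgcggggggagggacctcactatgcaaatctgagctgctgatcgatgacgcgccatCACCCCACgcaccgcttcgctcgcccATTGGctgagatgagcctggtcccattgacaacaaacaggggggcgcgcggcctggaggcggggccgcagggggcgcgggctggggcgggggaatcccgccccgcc
HMGCS1 showed 2 CCAAT matches (starting at -155 and -100 from the gene start) and NSDHL 5, of which 2 overlapped. INSIG1 and SREBF2 showed 1 CCAAT match and 1 CACNCCAC match each. The printed genes were picked, so they do not compare the enzymes with the other members. A match of letters is not a binding site, and no binding was measured in these samples.

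Neighbouring lipid pathways gave no calls either. ACACA, listed with the fatty acid synthesis genes, was not among the genes to which transcripts were summed and was left out. Of the 9 other fatty acid synthesis genes, 0 passed an FDR of 0.1 in any comparison by edgeR. In the joined comparison 3 had an unadjusted p under 0.05, namely ELOVL6 (log2 fold change -0.31), ACSS2 (-0.35) and ME1 (-0.39), where 7.21% of all genes did. All 3 within-group directions of the sterol synthesis enzymes were shared by 4 of the 9 genes (44.4%; ACLY, SCD, FADS1 and FADS2), beside 15.0% of all genes. FASN, the fatty acid synthase, had 1120 and 1180 CPM in the LacZ replicates, 1620 and 1090 with sg1, and 905 and 1420 with sg5. It did not share the direction in LacZ. Of 11 isoprenoid branch genes, 0 passed and 0 had an unadjusted p under 0.05, with a median log2 fold change of 0.01. Of 16 other sterol carriers, 0 passed and OSBPL11 alone had an unadjusted p under 0.05 in the joined comparison (7.21% of all genes), with 13.7 and 12.5 CPM in the LacZ replicates, 18.4 and 15.0 with sg1, and 17.0 and 19.1 with sg5. Of 12 genes of liver X receptor response and cholesterol ester handling, 7 were expressed highly enough to be tested and 0 passed. The phospholipid transfer protein gene PLTP had the only unadjusted p under 0.05 among these 7 in the joined comparison (7.21% of all genes), at 163 and 172 CPM in LacZ and 122 to 148 in the ARID1A-deficient samples. SCARB1, a lipoprotein receptor, had 244 and 251 CPM in LacZ and 198 to 268 in the ARID1A-deficient samples.

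Between the sgRNAs, 0 of the 34 members other than GRAMD1B passed an FDR of 0.1 by edgeR or by DESeq2, and 0 had an unadjusted p under 0.05 by either tool. Of all genes, 0.0054% passed and 1.38% had an unadjusted p under 0.05 by edgeR, and 0.027% and 0.924% by DESeq2. The median difference of the 34 members, sg1 minus sg5, was 0.03 on the log2 scale. The widest were those of CYP51A1 (1.10), whose level is uncertain, and ABCG1 (0.73), both on 22 counts or fewer per sample. In the control genes the differences were 0.22 for SREBF1 and 0.09 for SREBF2. Of the 35 members, 18 overlapped another gene with a mean of at least 10 counts, 17 of them on the opposite strand. Whether the library kit kept strand is not stated, so reads of such pairs may not have been told apart.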

How the data were processed

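RNA of 6 NB4 samples was sequenced from TruSeq libraries, and the authors quantified it per transcript with Kallisto. The deposited tables held estimated counts, with fractions where a model split reads among transcripts, and TPM, calculated by the authors with the effective length of each transcript. The submitters' processing notes name the build hg19, and the human transcript set is not given in the sources used here. Of 196354 transcripts per sample, 181857 (92.6%) matched GENCODE release 29 by identifier, without version. They carried 95.44% to 95.53% of the counts and were summed to genes and rounded. Coordinates come from that match (GRCh38).

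Genes passing filterByExpr with a minimum count of 10 entered the robust quasi-likelihood F-test of edgeR 4.0.16 under R 4.3.3 after TMM normalization, with all 6 samples in a model of group alone. Standard errors were derived from the F statistic, intervals are 95%, and the false discovery rate (FDR, Benjamini-Hochberg) was taken over 18514 genes, with a threshold of 0.1 as in the study. The common biological coefficient of variation was 16.6%. DESeq2 (version 1.42.0), which the study used, was an alternative, and the functions were tested on simulated data. CPM used TMM factors. Python 3.11.15 was used for joins, promoters and plots.

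The members and lists were chosen with earlier results of these data known. Values in every sample were given for GRAMD1B, GRAMD1A and GRAMD1C, for any member passing the test, and for up to 2 members per role group with the largest log2 fold change among those whose 4 ARID1A-deficient samples lay on 1 side of both LacZ samples. This rule named SREBF1, SREBF2 and NR1H3. The other members and listed genes given with all their values were chosen after these had been seen. Alternatives changed the test, length offset, normalization, filter, threshold, robust estimation, replicate block and samples. A crossed replicate block and other scalings of the within-group comparison were added after seeing the data.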

Additional observations from a re-analysis of the deposited data

Results flagged for a closer look

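Of 16 values checked over the 4 ARID1A-deficient samples, 2 had 1 sample far from the other 3, where chance flags about 1 in 20. For SREBF2, sg5 replicate 2 was lowest at 393 CPM against 453 to 460, and its gap to the next sample was 0.902 of the range of the 4. For NR1H3, sg5 replicate 1 was lowest at 8.80 CPM against 10.7 to 10.8, with a gap of 0.928 of the range.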

How the results depend on the processing

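Apart from the settings given next, 0 of the 34 members were called against LacZ under every alternative run. The count moved to 1 in sg5 (IDI1, log2 fold change 0.47) and 1 joined (HMGCS1, 0.39, FDR = 0.091 by edgeR) without the low-count filter, where 632 and 701 of all genes were called. DESeq2 called 116, 201 and 264 genes in sg1, sg5 and joined, against 7, 18 and 31 by edgeR, and 0 members. Leaving out sg1 replicate 1 and sg5 replicate 2 together, it moved to 4 in sg5 and 2 joined, where 787 and 809 genes were called. That also moved the median member log2 fold change in sg5 from 0.01 to -0.13, and leaving out 1 replicate at a time gave -0.14 to 0.09, with the lowest value without sg5 replicate 2. With the pair left out, joined log2 fold changes reversed to -0.26 for HMGCS1, -0.16 for SQLE, -0.08 for NSDHL, -0.09 for EBP, -0.09 for MSMO1, -0.31 for DHCR7 and -0.14 for INSIG1. Leaving out single replicates gave -0.03 to 0.72 for HMGCS1, -0.05 to 0.35 for SQLE, -0.02 to 0.58 for MSMO1 and -0.17 to 0.24 for DHCR7, with reversals without sg5 replicate 2 (HMGCS1, SQLE, DHCR7), LacZ replicate 2 (MSMO1) or sg1 replicate 1 (DHCR7). GRAMD1A in sg1 changed from -0.04 to 0.08 with a transcript length offset, in edgeR, in DESeq2 and with the replicate block, to 0.12 without the pair, and to between -0.21 and 0.12 without single replicates. The cause was not tested. GRAMD1B stayed between -0.93 and -0.78 in the joined comparison under every alternative run.

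The labels number the replicates without saying whether same-numbered samples were handled together. Deviations of same-numbered samples correlated at 0.07, 0.01 and -0.21 across genes. With 2 replicates per group these values cannot decide whether the samples were paired. With a replicate block 0 members were called in each comparison, and the genes called fell from 7, 18 and 31 to 1, 1 and 3. With the numbers of sg5 crossed, 59, 157 and 194 genes and again 0 members were called. A fit of only the groups compared gives no separate value for the joined comparison. With 2 replicates per group, joined intervals of HMGCS1, IDI1 and INSIG1 reached the size of the GRAMD1B change. Those of MSMO1 (-0.37 to 0.85), NSDHL (-0.25 to 0.85), EBP (-0.25 to 0.80) and SC5D (-0.10 to 0.80) came close to it. Differences in CYP51A1, ABCG1 and GRAMD1C were limited by counts of 64 or fewer.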
